A study of Mus musculus with 18 samples.

Results

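The genotype effect of liver was compared with that of epididymal white fat (eWAT), as the difference KO minus WT in liver less the difference KO minus WT in eWAT. The comparison used the 12 RNA-seq libraries of these tissues, of 18 libraries in all, with 3 libraries in each of 4 groups. KO libraries came from mice with both copies of Bckdha floxed and the RIP-Cre transgene. WT libraries came from mice with the same floxed gene and no Cre, so every group carried floxed Bckdha. All mice were C57BL/6 and 12 weeks old, and the labels name no sex. In RIP-Cre the rat insulin promoter drives Cre, with known activity in beta cells of the pancreas and in certain neurons. No group carried RIP-Cre alone, so its own effect and that of the deletion cannot be told apart. Whether each library stands for its own mouse is not stated. The p-values therefore measure the spread among libraries, part of which may be technical.

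Bckdha encodes a subunit of the branched-chain ketoacid dehydrogenase, the committed step in the breakdown of leucine, isoleucine and valine. Liver and white fat both make fatty acids from acetyl-CoA after feeding, under insulin and the transcription factors SREBP-1c and ChREBP. Liver burns fatty acids and exports ketone bodies in fasting, under PPAR-alpha, whereas white fat stores triglyceride and releases fatty acids. A positive difference below means that KO minus WT was more positive, or less negative, in liver than in eWAT, and all differences are on the log2 scale.

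Total expected counts ranged from 18629302 to 25969223 in liver and from 16796147 to 24357859 in eWAT. Levels are in CPM, counts relative to the library size, scaled over the 12 libraries. The liver marker Alb, the gene of serum albumin, stood between 117776 and 153041 CPM in the 6 liver libraries. The adipocyte gene Adipoq stood between 594 and 2431 CPM in 5 eWAT libraries and at 10.7 CPM in eWAT WT replicate 2. In that library the mean log2 level of 12 adipocyte markers was 2.83, against 8.55 to 9.62 in the other eWAT libraries, and none of the 12 was at 0. Its mean over 17 epididymis markers was 10.24, against -0.83 to 1.60, and Gpx5, a glutathione peroxidase of the epididymis, reached 27463 CPM. Values below are over 12 libraries unless stated, and values over the 11 libraries that leave this one out are given beside most of them. eWAT KO replicates 1 and 3 held 3791 and 3638 CPM of Akr1b7, an aldo-keto reductase known from the vas deferens, and at most 4.14 CPM was found in the other 4 eWAT libraries. Myh11, the smooth muscle myosin, stood at 788 and 774 CPM in this pair and at 29.5 to 165 CPM in the other 4. The same pair held 871 and 998 CPM of the epididymis marker Crisp1. It stood at 678 CPM in eWAT WT replicate 2 and at most 1.25 CPM in the other eWAT libraries. Summed epididymis markers were 931 and 1039 CPM in this pair, 50200 CPM in WT replicate 2 and 1.39 to 63.3 CPM in the others. The 11 libraries thus still hold epididymal transcripts. The mean log2 level of spermatid markers was 6.26 in eWAT KO replicate 1 and -0.94 to 3.14 in the other eWAT libraries, with the protamine gene Prm2 at 171 CPM against at most 26.2. The mean log2 level of hepatocyte markers was 5.62 in eWAT KO replicate 2 and 2.85 to 4.16 in the other eWAT libraries, with Alb at 303 CPM. Their summed level was 5454 CPM in that library, below 7068 and 11790 CPM in eWAT WT replicates 1 and 3. In bulk tissue, fewer cells of a type and less RNA per cell cannot be told apart.

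**Figure D1:**
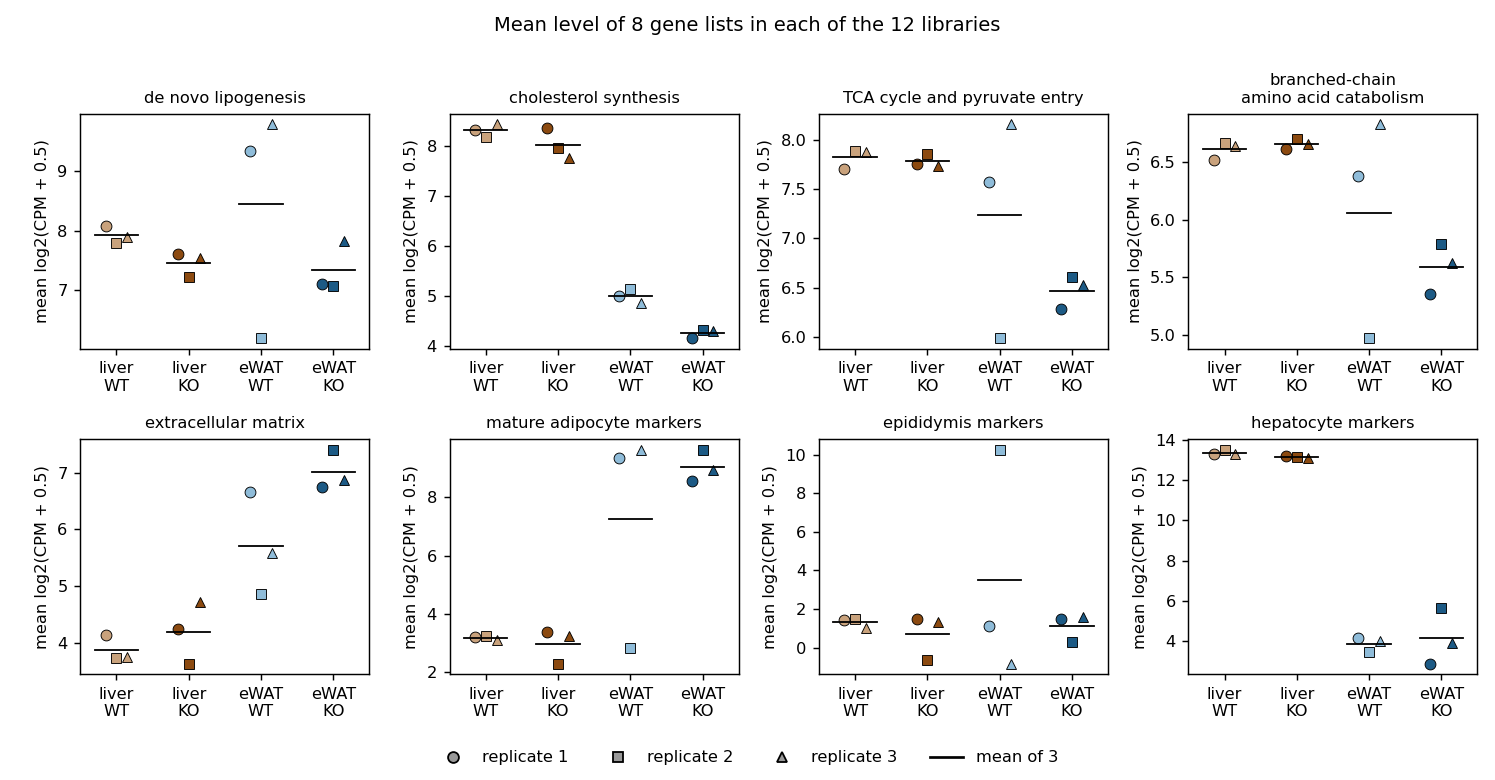
Mean log2(CPM + 0.5) over the members of 8 gene lists in each of the 12 libraries, by group, with symbols for the replicate number and a line for the mean of 3. eWAT WT replicate 2 lies at 2.83 for adipocyte markers and at 10.24 for epididymis markers, and it is the lowest eWAT WT library for lipogenesis and for the TCA cycle.

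Over the 12 libraries no gene passed the test of the difference. Of 14984 genes tested, 0 had an adjusted p under 0.05 by edgeR's quasi-likelihood test, and the lowest adjusted p was 0.787. An unadjusted p under 0.05 was reached by 794 genes (5.3%), with 432 differences above 0 (2.88%) and 362 below (2.42%). DESeq2 called 40 genes, limma-voom 0 and limma-voom with sample weights 112. The median SE of the difference was 0.58. The median SD of log2 levels between libraries was 0.51 in eWAT WT, against 0.27 in liver WT, 0.21 in liver KO and 0.27 in eWAT KO. Without eWAT WT replicate 2 the eWAT WT value was 0.27. Without eWAT KO replicate 2 the test called 4 genes, Akr1b7, Ptgs2, Foxa1 and Slc17a4, which were named after their values were seen.

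The eWAT effect was more often the larger one in size, among all genes tested as well. Among the 794 genes, the eWAT effect was the larger one in size for 615 (77.5%), against 66.2% of all genes tested. Without eWAT WT replicate 2 these values were 1581 of 1861 (84.95%) against 68.2%. Over 12 libraries eWAT WT had the largest spread between libraries (median SD 0.51), and a larger spread alone can enlarge effects. Its part was not tested, so these shares do not locate a genotype effect. In the same 12-library model, eWAT alone gave 5 called genes by edgeR, 2 higher in KO (0.0133%) and 3 lower (0.02%). Liver alone gave 0, with 339 genes (2.26%) at an unadjusted p under 0.05. The model estimates 1 spread per gene from all 4 groups, so the liver test was judged partly against the eWAT spread. The median SE of KO minus WT was 0.40 in liver and 0.41 in eWAT, and without eWAT WT replicate 2 it was 0.31 and 0.34. The eWAT count of 5 became 436 without eWAT WT replicate 2, 28 without eWAT KO replicate 2 and 0 or 1 without each of the other 10 libraries. The liver count became 1 without eWAT WT replicate 2 or liver WT replicate 3.

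**Figure D2:**
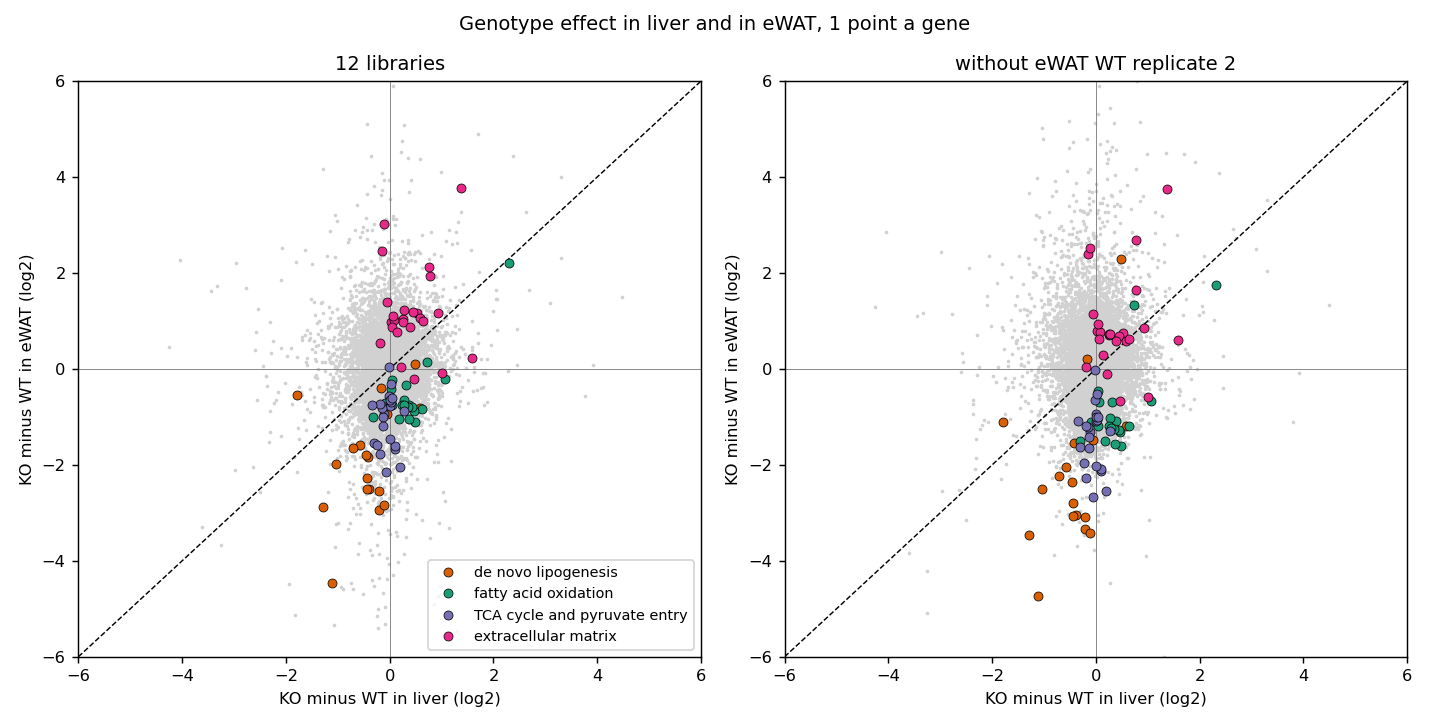
KO minus WT in liver (x axis, log2) against KO minus WT in eWAT (y axis, log2), 1 point a gene with at least 30 reads over the 6 libraries of each tissue, with 12 libraries (12474 genes shown, 45 beyond the axes) and without eWAT WT replicate 2 (12511 shown, 23 beyond). The dashed line marks equal effects, and members of 4 lists are coloured. Lipogenesis and TCA cycle members lie mostly below the line and extracellular matrix members mostly above it.

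Leaving out eWAT WT replicate 2, the difference passed the test for 9 of 15251 genes (0.059%), 7 above 0 (0.0459%) and 2 below (0.0131%). Their edgeR adjusted p lay between 0.0494 and 0.0499, just inside the threshold. An unadjusted p under 0.05 was reached by 1861 genes (12.2%), 7.39% above 0 and 4.81% below. All 7 genes above 0 fell in eWAT KO in the same fit (edgeR adjusted p 0.00384 to 0.00498), and they include enzymes that supply acetyl-CoA and NADPH for fatty acid synthesis. None of the 7 passed in liver. DESeq2 called 453 genes, all 9 among them, and limma-voom called 0. The 9 became 0 with upper quartile scaling, with scaling factors computed within each tissue, or when any of 9 further libraries was left out. Leaving out eWAT WT replicate 1 or eWAT KO replicate 2 as well gave 93 and 150 calls, with the same 9 genes in both. When eWAT WT replicate 1 or 3 is also left out, eWAT WT is a single library, which the model assumes to vary like the other groups.

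Me1 (ENSMUSG00000032418, chromosome 9 at 86581371 to 86695953 on GRCm38) encodes the cytosolic malic enzyme, which makes NADPH. Its levels were 272, 290 and 334 CPM in liver WT and 248, 308 and 272 CPM in liver KO. In eWAT WT replicates 1, 2 and 3 they were 1792, 25.02 and 3162 CPM, and in eWAT KO 159, 254 and 280 CPM. The liver groups overlapped, and without replicate 2 both eWAT WT libraries lay above every KO library. The difference was 3.30 ± 0.43 (SE) without replicate 2 (edgeR adjusted p = 0.0494) and 2.73 ± 1.43 with it (edgeR adjusted p = 0.866).

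Acss2 (ENSMUSG00000027605, chromosome 2 at 155517948 to 155585724) encodes the cytosolic enzyme that makes acetyl-CoA from acetate. It stood at 320, 287 and 323 CPM in liver WT and at 272, 195 and 222 CPM in liver KO. In eWAT it stood at 174, 18.5 and 247 CPM in WT and at 22.7, 34.0 and 34.2 CPM in KO. KO lay below WT in liver without overlap, and in eWAT only when replicate 2 of WT was left out. The difference was 2.36 ± 0.33 over 11 libraries (edgeR adjusted p = 0.0499), with an eWAT effect of -2.80 ± 0.25, and 1.84 ± 0.91 over 12.

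Sbk1 (ENSMUSG00000042978, chromosome 7 at 126272619 to 126295016), a serine/threonine kinase with an SH3-binding domain, had opposite directions in the tissues. Liver WT held 55.1, 46.9 and 48.5 CPM and liver KO 71.0, 55.2 and 60.7 CPM. eWAT WT held 76.4, 34.0 and 98.1 CPM and eWAT KO 19.9, 14.4 and 23.2 CPM. The groups did not overlap in either tissue, also with replicate 2 of WT. The difference was 2.50 ± 0.30 over 11 libraries (edgeR adjusted p = 0.0494) and 2.17 ± 0.47 over 12 (edgeR adjusted p = 0.787).

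Nabp1, a single-stranded DNA binding protein, stood at 324, 13.4 and 606 CPM in eWAT WT and at 61.8, 53.5 and 54.8 CPM in eWAT KO. Its liver levels were 21.5 to 39.1 CPM in all 6 libraries, and the difference over 11 libraries was 3.09 ± 0.41. Aspa, which splits N-acetylaspartate into acetate and aspartate, stood at 30.4, 0.634 and 46.4 CPM in eWAT WT and at 5.83, 8.91 and 8.03 CPM in eWAT KO. Its difference was 2.75 ± 0.37. Aspa and Acss2 thus sit on either side of the same metabolite, acetate, and both fell in eWAT KO over 11 libraries (edgeR adjusted p = 0.00481 and 0.00384). Traf4, an adaptor of receptor signalling, stood at 32.6, 11.2 and 48.3 CPM in eWAT WT and at 7.96, 10.5 and 9.89 CPM in eWAT KO, with a difference of 1.95 ± 0.28. D5Ertd579e was the other gene called above 0, at 1.58 ± 0.22, and was named for completeness after its value was seen. Over 12 libraries the differences were 2.52 ± 1.21 for Nabp1, 2.17 ± 1.29 for Aspa, 1.55 ± 0.56 for Traf4 and 1.18 ± 0.56 for D5Ertd579e (edgeR adjusted p = 0.866 for each). In each of the 9 genes called, eWAT WT replicate 2 lay outside the range of the other eWAT WT libraries.

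The 2 genes called below 0 over 11 libraries rose in eWAT KO, and their liver KO libraries lay below the liver WT libraries without overlap. Slc41a2 (ENSMUSG00000034591, chromosome 10 at 83230848 to 83337882), a magnesium transporter, stood at 108, 80.3 and 82.3 CPM in liver WT and at 55.0, 39.6 and 54.0 CPM in liver KO. The eWAT levels were 4.45, 108 and 2.78 CPM in WT and 20.98, 12.3 and 18.01 CPM in KO. The difference was -3.10 ± 0.40 over 11 libraries (edgeR adjusted p = 0.0494) and 0.30 ± 1.44 over 12, so its sign turned with the single eWAT WT library at 108 CPM. Arhgef26, a guanine nucleotide exchange factor, stood at 3.43, 8.46 and 2.71 CPM in eWAT WT and at 10.3, 7.00 and 10.8 CPM in eWAT KO. Its liver levels were 60.8 to 66.7 CPM in WT and 41.1 to 48.1 CPM in KO, and the difference was -2.11 ± 0.29 over 11 libraries and -1.45 ± 0.51 over 12. Cotl1 and Fam20c came next below 0 among genes whose mean log2 CPM was not under 1, followed by Basp1, Sntg2, Gdf15, Slc25a45 and Papss1, and none of them passed (edgeR adjusted p 0.0632 to 0.0992). Basp1 turned from -3.30 over 11 libraries to 1.15 over 12, Sntg2 moved from -3.22 to -1.94 and Papss1 from -1.40 to -0.43. Gdf15, a stress-induced hormone, stood at 1.78, 1.18 and 1.59 CPM in eWAT KO and at 0.218, 0.373 and 0.178 CPM in eWAT WT. Papss1, which makes the sulfate donor PAPS, differed in liver, at 32.9 to 37.7 CPM in WT and 16.1 to 18.2 CPM in KO.

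**Figure D3:**
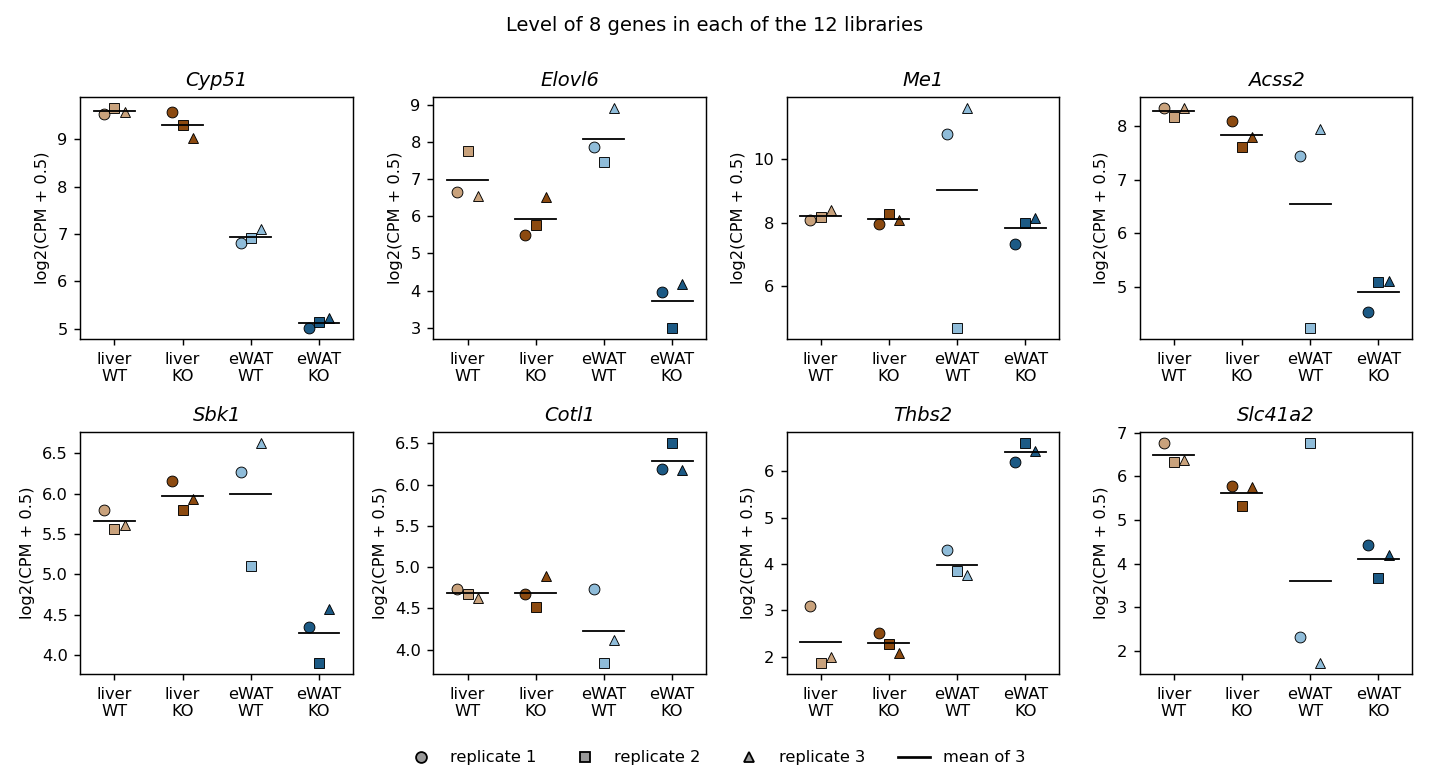
Level of 8 genes, log2(CPM + 0.5), in each of the 12 libraries, by group, with symbols for the replicate number and a line for the mean of 3. Me1, Acss2 and Slc41a2 show the eWAT WT replicate 2 library (square) apart from the other WT libraries, whereas Cyp51, Cotl1 and Thbs2 show 3 WT libraries close together.

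Among the genes with the lowest p over all 12 libraries, none passed the test of the difference (edgeR adjusted p = 0.787 for each). Above 0 they included Cyp51, Lactb2, Tlcd1, Elovl6 and Mtx3, and below 0 Cotl1, Foxa1, Thbs2, Slc17a4, Fam20c and Slc25a45. Elovl6 (ENSMUSG00000041220, chromosome 3 at 129532355 to 129638495), which elongates palmitate to stearate, stood at 99.5, 217 and 93.3 CPM in liver WT and at 45.0, 54.2 and 91.0 CPM in liver KO. In eWAT it stood at 231, 176 and 487 CPM in WT and at 15.2, 7.46 and 17.7 CPM in KO. KO lay below WT in both tissues without overlap, and in eWAT the fall passed the test over 12 libraries (-4.47 ± 0.57, edgeR adjusted p = 0.0391). The liver effect was -1.11 ± 0.50, and the difference was 3.36 ± 0.72 over 12 libraries and 3.63 ± 0.68 over 11.

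Lactb2, a mitochondrial endoribonuclease, stood at 43.8, 45.1 and 49.3 CPM in eWAT WT and at 17.4, 21.4 and 17.3 CPM in eWAT KO, with overlapping liver groups and a difference of 1.46 ± 0.30. Tlcd1, a membrane lipid regulator, differed by 1.40 ± 0.30. Both had all 3 KO libraries below all 3 WT libraries in eWAT, replicate 2 included, and passed in eWAT over 11 libraries (edgeR adjusted p = 0.0173 and 0.0119).

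Cotl1 (ENSMUSG00000031827, chromosome 8 at 119809222 to 119840544), an actin-binding protein, had the lowest p of all genes. It stood at 26.2, 13.8 and 16.9 CPM in eWAT WT and at 72.2, 90.3 and 71.7 CPM in eWAT KO. In liver it stood between 22.3 and 29.1 CPM in all 6 libraries. The rise in eWAT passed over 12 libraries (2.04 ± 0.24, edgeR adjusted p = 0.0391), and the difference was -2.03 ± 0.33, with -1.84 ± 0.29 over 11 (edgeR adjusted p = 0.0632). Thbs2, a matrix glycoprotein, stood at 19.4, 14.0 and 13.2 CPM in eWAT WT and at 73.1, 97.3 and 86.5 CPM in eWAT KO, with liver at 3.12 to 8.03 CPM. Its difference was -2.61 ± 0.48, and -2.55 ± 0.50 over 11 libraries. Fam20c, a kinase of secreted proteins, stood at 18.3, 20.7 and 8.09 CPM in eWAT WT and at 51.1, 54.0 and 51.5 CPM in eWAT KO, with a difference of -1.96 ± 0.41, and -2.21 ± 0.38 over 11 libraries. In these 3 genes eWAT KO replicate 2, the KO library without raised Akr1b7 or Myh11, was as high as the other KO libraries. Synpo2, an actin-bundling protein of smooth muscle named after its value was seen, also rose in eWAT (edgeR adjusted p = 0.0391), from 23.3, 11.8 and 14.3 CPM to 148, 107 and 142 CPM.

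Foxa1 and Slc17a4, a liver transcription factor and a urate and phosphate transporter, were near the limit of detection in eWAT. Foxa1 stood at 0.0311, 0 and 0 CPM in eWAT WT and at 0.852, 0.164 and 0.672 CPM in eWAT KO. Slc17a4 was at 0 in all 3 eWAT WT libraries and at 0.376, 0.0986 and 0.458 CPM in eWAT KO. KO replicates 1 and 3, which held Akr1b7 and Myh11, were the highest for both, and the part of those transcripts was not tested.

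**Figure D4:**
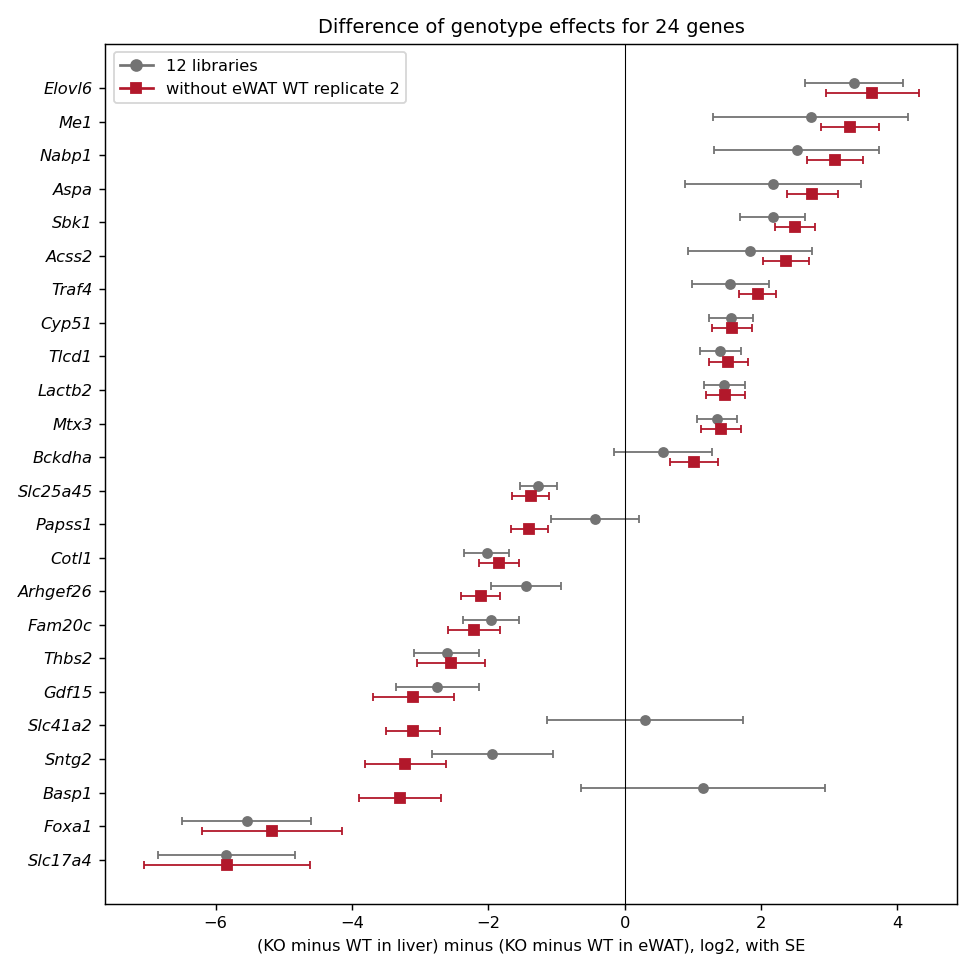
Difference of the genotype effects (liver minus eWAT, log2, with SE) for 24 genes, over 12 libraries (circles) and without eWAT WT replicate 2 (squares). Cyp51, Cotl1 and Thbs2 moved little between both fits, whereas Slc41a2 and Basp1 changed sign.

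De novo lipogenesis had the largest positive median difference over 12 libraries among the 28 pathway lists apart from the mitochondrial genome. Of 19 lipogenesis genes, 18 had a difference above 0 over 12 libraries, against 55.3% of all genes tested, with a median of 1.39 against 0.08. Over 11 libraries 16 were above 0 (46.3% of all genes), with a median of 1.77 against -0.06. There, 15 had an unadjusted p under 0.05 in that direction, against 7.39% of all genes. The median KO minus WT of the list over 12 libraries was -0.43 in liver, where 0 of 19 passed in either fit, and -1.83 in eWAT. In eWAT 1 of the 19 passed as lower over 12 libraries, against 0.02% of all genes, and 13 over 11, against 2.45%. Acly, which makes cytosolic acetyl-CoA from citrate, stood at 3216, 1093 and 4253 CPM in eWAT WT and at 296, 284 and 534 CPM in eWAT KO. In liver it stood at 630, 427 and 640 CPM in WT and at 486, 377 and 603 CPM in KO, and the groups overlapped. Its difference was 2.73 ± 0.70 over 12 libraries and 3.12 ± 0.49 over 11 (edgeR adjusted p = 0.866 and 0.0629). Scd2, a stearoyl-CoA desaturase, stood at 880, 1288 and 694 CPM in eWAT WT and at 299, 161 and 347 CPM in eWAT KO, so replicate 2 was its highest WT library, and the difference was 1.41 ± 0.54.

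Adipocyte markers moved between both fits. Over 12 libraries 7 of 12 were above 0 in eWAT, against 45.6% of all genes, with a median of 0.18. Over 11 libraries 10 of 12 were below 0, where 55.8% of all genes were above 0, with a median of -0.39, and 0 passed in either fit. The summed level of the 12 was 17660 and 30420 CPM in eWAT WT replicates 1 and 3 and 7529, 15570 and 9995 CPM in eWAT KO. These sums did not overlap without WT replicate 2, whereas on the mean log2 scale the ranges did, at 9.33 and 9.62 against 8.55 to 9.62. Their part in the lipogenesis result was not tested. Leaving out eWAT WT replicate 3, the library with the highest lipogenesis level, lowered the list's median difference over the other 11 libraries to 0.78.

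Cholesterol synthesis differed from lipogenesis in that eWAT WT replicate 2 was not low. The mean log2 level of the 24 genes was 4.99, 5.13 and 4.86 in eWAT WT and 4.15, 4.31 and 4.29 in eWAT KO, without overlap. In liver it was 8.32, 8.18 and 8.43 in WT and 8.36, 7.94 and 7.74 in KO, and the groups overlapped. The median KO minus WT of the list over 12 libraries was -0.32 in liver, against -0.01 for all genes, and -1.02 in eWAT. In each tissue 20 of the 24 were below 0. Of the 24 genes, 20 had a difference above 0 over 12 libraries, with a median of 0.70, and 6 of them had an unadjusted p under 0.05, against 2.88% of all genes. Over 11 libraries the median was 0.45, with 17 above 0 and 9 of the 24 passing as lower in eWAT, against 2.45% of all genes. Leaving out liver KO replicate 1 lowered the 12-library median to 0.43.

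Cyp51 (ENSMUSG00000001467, chromosome 5 at 4081145 to 4104746), the lanosterol demethylase, stood at 112, 120 and 138 CPM in eWAT WT and at 31.9, 34.8 and 36.8 CPM in eWAT KO. In liver it stood at 743, 814 and 762 CPM in WT and at 764, 627 and 524 CPM in KO. The fall in eWAT passed the test over 12 libraries (-1.84 ± 0.23, edgeR adjusted p = 0.0391), the liver groups overlapped (-0.28 ± 0.23), and the difference was 1.56 ± 0.32. Lss, which closes the sterol rings, stood at 29.6, 37.6 and 26.95 CPM in eWAT WT and at 10.6, 9.83 and 12.0 CPM in eWAT KO. Nsdhl, which removes a sterol methyl group, stood at 51.9, 89.1 and 44.7 CPM in eWAT WT and at 18.4, 12.7 and 15.5 CPM in eWAT KO. Their differences were 1.18 ± 0.33 and 1.44 ± 0.42 over 12 libraries and 1.03 ± 0.31 and 1.08 ± 0.32 over 11. In all 3 genes the eWAT groups stood apart. The liver groups of Nsdhl stood apart too, at 272, 270 and 253 CPM in WT and at 238, 163 and 141 CPM in KO. KO minus WT in liver did not pass for any of the 3 genes.

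The promoters of these 3 sterol genes, the list's members of lowest p, are shown as the 150 bases before the start site from RefSeq (GRCm38.p6), 5′ to 3′ on the gene's strand. Capitals mark CCAAT, the core letters of the NF-Y motif, on either strand (ATTGG on the other). They lie at chr5:4104698-4104847 (minus strand), chr10:76531455-76531604 (plus) and chrX:72918371-72918520 (plus).
Cyp51: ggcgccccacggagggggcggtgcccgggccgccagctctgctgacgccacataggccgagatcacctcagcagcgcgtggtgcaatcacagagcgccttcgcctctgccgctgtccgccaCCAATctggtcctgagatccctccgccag
Lss: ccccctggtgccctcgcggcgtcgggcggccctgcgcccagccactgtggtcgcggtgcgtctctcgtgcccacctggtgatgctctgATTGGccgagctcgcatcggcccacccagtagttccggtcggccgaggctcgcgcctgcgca
Nsdhl: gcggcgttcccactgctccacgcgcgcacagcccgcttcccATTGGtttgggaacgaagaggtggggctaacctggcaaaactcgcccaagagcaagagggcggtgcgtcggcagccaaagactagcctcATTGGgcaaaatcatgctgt
Over windows from 250 bases before to 50 after the start, CCAAT on either strand was present in 16 of the 19 promoters (84.2%) that the RefSeq table held for 16 of the 24 cholesterol genes. It was present in 13 of 21 lipogenesis promoters (61.9%), 19 of 30 TCA cycle promoters (63.3%), 7 of 18 fatty acid oxidation promoters (38.9%) and 37.4% of all 32851 promoters. The sterol element letters TCACNCCAC were in 1 of 19 cholesterol promoters, 1 of 21 lipogenesis promoters, 1 of 18 fatty acid oxidation promoters, 0 of 30 TCA cycle promoters and 1.24% of all promoters. A match is a description of letters, not a binding site.

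**Figure D5:**
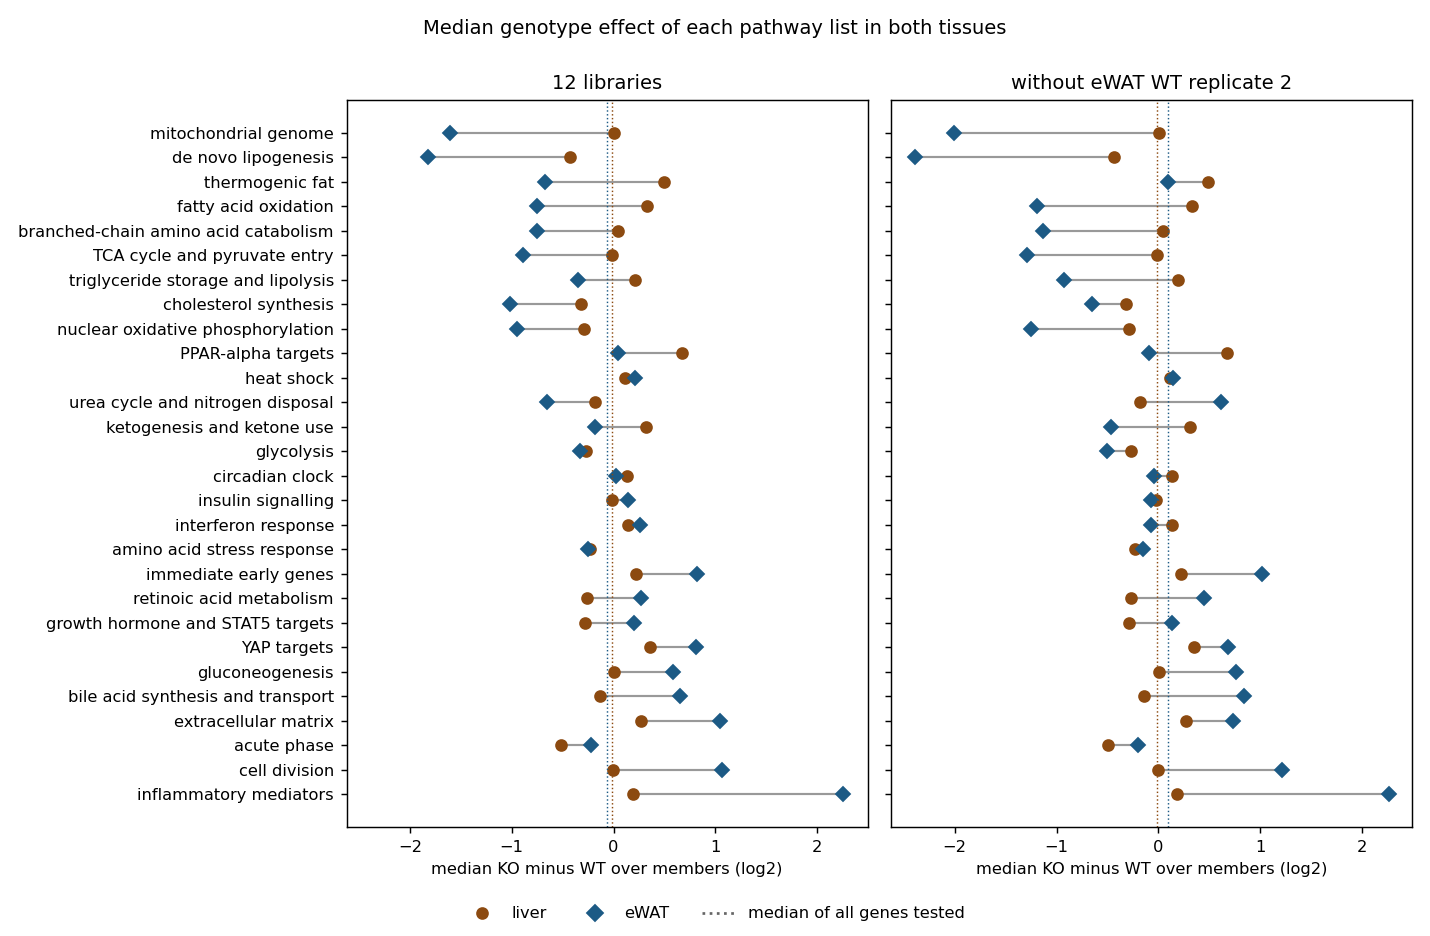
Median KO minus WT (log2) over the tested members of 28 pathway lists in liver (circles) and eWAT (diamonds), over 12 libraries and without eWAT WT replicate 2, ordered by the median difference over 12 libraries. Dotted lines mark the median of all genes tested in each tissue. Lipogenesis lies at -0.43 in liver and -1.83 in eWAT over 12 libraries, whereas extracellular matrix lies at 0.27 and 1.05.

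Fatty acid oxidation genes had median effects of opposite sign in the tissues. All 20 genes tested had a difference above 0 over 12 libraries, with a median of 1.02, and 19 of 20 over 11 libraries, with 1.45. The median effect was 0.33 in liver, where 18 of 20 were above 0 against 46.2% of all genes, and -0.76 in eWAT, where 18 were below 0. Over 11 libraries 9 of the 20 passed as lower in eWAT, against 2.45% of all genes, and 0 passed in liver, where 1 gene of all passed as higher (0.00656%). Etfdh, which hands electrons from fatty acid oxidation to the respiratory chain, stood at 234, 225 and 214 CPM in liver WT and at 296, 400 and 345 CPM in liver KO. The eWAT levels were 73.4, 29.0 and 99.5 CPM in WT and 33.0, 45.5 and 34.7 CPM in KO. The liver groups stood apart, the eWAT groups only without replicate 2 of WT, and the difference was 1.47 ± 0.52 over 12 libraries and 1.83 ± 0.29 over 11 (edgeR adjusted p = 0.866 and 0.0633). Acadm, the medium-chain acyl-CoA dehydrogenase, stood at 344, 434 and 402 CPM in liver WT and at 537, 610 and 503 CPM in liver KO, with differences of 1.60 ± 0.80 and 2.08 ± 0.39. Without eWAT WT replicate 3 the list's median over the other 11 libraries was 0.51.

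All 22 PPAR-alpha target genes tested were above 0 in liver, with a median of 0.67, and 13 were above 0 in eWAT, with 0.04. None passed in liver alone. The mean log2 level of the list in liver was 7.238, 7.033 and 7.113 in WT and 8.231, 8.008 and 7.125 in KO, so KO replicate 3 lay within the WT range. The difference was above 0 for 17, with a median of 0.59 over 12 libraries and 0.80 over 11. It was 0.34 when eWAT WT replicate 3 was left out and 1.29 when eWAT KO replicate 2 was. Ehhadh, the peroxisomal bifunctional enzyme, stood at 397, 336 and 432 CPM in liver WT and at 953, 995 and 444 CPM in liver KO. In eWAT it stood at 52.3, 23.0 and 141 CPM in WT and at 22.7, 27.4 and 31.0 CPM in KO. Its difference was 2.45 ± 0.79 over 12 libraries. Acot1, an acyl-CoA thioesterase with close paralogs that can share reads, stood at 82.9, 59.9 and 13.3 CPM in liver KO against 11.3 to 21.3 CPM in WT, so its liver groups overlapped through KO replicate 3. Of 6 ketone genes 5 had a difference above 0, with a median of 0.26, and 0.46 over 11 libraries.

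The deleted gene showed no difference that passed. Bckdha (ENSMUSG00000060376, chromosome 7 at 25629946 to 25658981) stood at 324, 378 and 384 CPM in liver WT and at 404, 329 and 288 CPM in liver KO. The eWAT levels were 132, 33.0 and 218 CPM in WT and 63.5, 89.8 and 91.4 CPM in KO. The groups overlapped in both tissues, and in eWAT did not once replicate 2 of WT was left out. The difference was 0.56 ± 0.71 over 12 libraries and 1.01 ± 0.36 over 11 (edgeR adjusted p = 0.930 and 0.306), and without eWAT WT replicate 3 it was -0.12. Neither tissue is a known site of RIP-Cre, so the levels are no test of the labelled genotypes.

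The 27 genes of branched-chain amino acid breakdown were all above 0 over 12 libraries, with a median of 0.85, and 26 of 27 over 11 libraries, with 1.24. Of the 27, 3 had an unadjusted p under 0.05 over 12 libraries, against 2.88% of all genes in that direction, and 22 over 11, against 7.39%. The liver median was 0.04 and that of eWAT -0.75, and 15 of the 27 passed as lower in eWAT over 11 libraries, against 2.45% of all genes. Aldh6a1, an enzyme late in valine breakdown, stood at 599, 363 and 973 CPM in eWAT WT and at 226, 392 and 325 CPM in eWAT KO, with a difference of 1.32 ± 0.53. Acad8, the isobutyryl-CoA dehydrogenase, stood at 31.5, 43.0 and 34.1 CPM in eWAT WT and at 18.5, 22.5 and 23.5 CPM in eWAT KO, without overlap and with liver at 65.1 to 76.6 CPM in all 6 libraries. Its difference was 0.70 ± 0.24. Acat1, which cleaves acetoacetyl-CoA, stood at 504, 580 and 539 CPM in liver KO above 377, 417 and 374 CPM in liver WT, and its difference was 1.16 ± 0.52. Leaving out eWAT WT replicate 3 lowered the list's median to 0.30.

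All 48 nuclear genes of oxidative phosphorylation had a difference above 0 over 12 libraries, with a median of 0.64, but 0 had an unadjusted p under 0.05. KO minus WT was below 0 for 46 of the 48 in liver, with a median of -0.29, and for all 48 in eWAT, with -0.95, and none passed in either tissue over 12 libraries. Over 11 libraries the median difference was 0.99, with 32 at an unadjusted p under 0.05, against 7.39% of all genes, and 24 passing as lower in eWAT, against 2.45%. The 13 mRNAs of the mitochondrial genome were all above 0 too, with a median of 1.52 over 12 libraries and 1.95 over 11. mt-Nd6 stood at 484, 304 and 1954 CPM in eWAT WT, so WT replicate 3 was high, and at 242, 284 and 276 CPM in eWAT KO. Without WT replicate 3 the medians were 0.07 for the nuclear and 0.36 for the mitochondrial list.

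Of 23 genes of the TCA cycle and pyruvate entry, 22 had a difference above 0 over 12 libraries, with a median of 0.83, and 23 over 11, with 1.21. Over 11 libraries 19 of the 23 passed as lower in eWAT, against 2.45% of all genes, and the liver median was -0.01. Pdk1, a kinase that inhibits pyruvate dehydrogenase, fell in eWAT over 12 libraries (-1.53 ± 0.20, edgeR adjusted p = 0.0391), from 96.7, 96.0 and 134 CPM to 33.6, 41.0 and 38.4 CPM. Pdha1, a subunit of pyruvate dehydrogenase, stood at 510, 133 and 898 CPM in eWAT WT and at 127, 173 and 183 CPM in eWAT KO, with differences of 1.77 ± 0.72 and 2.22 ± 0.37. Mpc1, a subunit of the mitochondrial pyruvate carrier, stood at 311, 47.8 and 640 CPM in eWAT WT and at 58.6, 103 and 82.2 CPM in eWAT KO. Inhibitor and enzyme thus both fell in eWAT KO over 11 libraries (edgeR adjusted p = 0.00498 for Pdk1 and 0.00705 for Pdha1). Without eWAT WT replicate 3 the list's median was 0.33.

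Triglyceride storage and lipolysis genes were above 0 for 12 of 17, with a median of 0.72 over 12 libraries, 1.29 over 11 and -0.05 without eWAT WT replicate 3. Agpat2, an enzyme of phosphatidate synthesis, stood at 772, 18.7 and 1399 CPM in eWAT WT and at 92.7, 151 and 173 CPM in eWAT KO. Glycolysis genes stood near the background, with 11 of 19 above 0 and a median of 0.11, and 0.31 over 11 libraries. The thermogenic list turned sign, from a median of 1.17 over 12 libraries to -0.09 over 11. Its lead member Elovl3, a fatty acid elongase, stood at 51.2, 56.9 and 29.8 CPM in liver KO above 11.3, 20.3 and 24.2 CPM in liver WT. In eWAT it stood at 0.747, 0 and 7.77 CPM in WT and below 0.1 CPM in each KO library.

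The lists of matrix, immune cells and cell division were among those with median differences below 0. Of 25 extracellular matrix genes 21 were below 0 over 12 libraries, with a median of -0.73, and 19 over 11, with -0.47. The median was -1.33 without eWAT WT replicate 1. Both tissues had medians above 0, 0.27 in liver and 1.05 in eWAT, and 1 of 25 passed as higher in eWAT over 11 libraries (Thbs2, edgeR adjusted p = 0.0158), against 0.413% of all genes. Fn1, fibronectin, stood at 239, 23.4 and 78.6 CPM in eWAT WT and at 210, 2237 and 300 CPM in eWAT KO, with KO replicate 2 far above the others. Its difference was -3.12 ± 1.35. It stayed below 0 in all 28 alternatives, at -4.27 to -1.02, the fit without KO replicate 2 included. Ccn2, a matricellular YAP target, lay on the other side of 0. It stood at 5.02, 5.68 and 5.76 CPM in liver WT and at 14.4, 15.9 and 19.3 CPM in liver KO, with overlapping eWAT groups and a difference of 1.36 ± 0.52.

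All 12 macrophage markers had a difference below 0 over 12 libraries, with a median of -1.10, and 11 over 11 libraries, with -0.75. Without eWAT KO replicate 2 the median was -0.59. Their mean log2 level was 5.23, 3.44 and 4.75 in eWAT WT and 5.38, 6.36 and 5.55 in eWAT KO, without overlap, and 3.97 to 4.74 in liver, with overlap. Their summed levels did overlap in eWAT, at 880, 290 and 604 CPM in WT and 781, 1826 and 864 CPM in KO. Cd68, a macrophage lysosomal protein, stood at 32.4, 16.5 and 22.6 CPM in eWAT WT and at 53.6, 94.4 and 54.3 CPM in eWAT KO. T cell markers were below 0 for 10 of 10 genes, with a median of -0.88, and for 9 over 11 libraries, with -0.70. Their levels were low, with all 10 summing to 5.24 to 12.3 CPM in liver and 6.19 to 16.2 CPM in eWAT. Without liver WT replicate 1 their median was -0.54. No macrophage or T cell marker passed in eWAT in either fit.

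Among inflammatory mediators 11 of 12 tested were below 0, with a median of -2.80 over 12 libraries, -2.53 over 11 and -0.83 without eWAT KO replicate 2. Of the 17 members, only 12 passed the count filter over 12 libraries and 15 over 11. Their mean log2 level in liver was only 0.74 to 1.44. Genes low in liver could pass the filter through eWAT libraries alone, so the count and the median depend in part on the filter. Ptgs2, the inducible prostaglandin synthase, stood at 2.02, 2.80 and 0.642 CPM in eWAT WT and at 635, 4.40 and 810 CPM in eWAT KO. Its 2 high libraries were those that held Akr1b7 and Myh11, and the part of those transcripts was not tested. Il1rn, the interleukin-1 receptor antagonist, and Ccl3, a macrophage chemokine, were instead highest in KO replicate 2, at 21.1 CPM against 1.84 and 1.74, and at 3.71 CPM against 0.456 and 0.427. Neutrophil marker S100a8 was also highest in that library, at 13.4 CPM against at most 3.52 in the other eWAT libraries. Cell division genes were below 0 for 16 of 18, with a median of -1.09, and 0 had an unadjusted p under 0.05 over 12 libraries. Their mean log2 level was low, at 0.07 to 0.43 in liver and 0.51 to 1.83 in eWAT. Their median was -1.10 over 11 libraries and -0.44 without eWAT KO replicate 1, the library with the highest spermatid markers, whose part was not tested.

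Hepatic lists hung on eWAT KO replicate 2, in which hepatocyte markers were highest on the mean log2 scale but not in summed level. The medians of bile acid genes and of acute phase genes were -0.68 and -0.76 over 12 libraries, -0.54 and -0.26 over 11, and 0.23 and 0.46 without KO replicate 2. Arg1, the arginase of the urea cycle and of some macrophages, stood at 620 CPM in that library and at 0.8199 to 1.96 CPM in the other 5 eWAT libraries. In liver Arg1 stood at 981 to 2238 CPM beside Alb at 117776 to 153041 CPM, whereas in this library Arg1 exceeded Alb at 303 CPM. Pck1, the rate-limiting enzyme of gluconeogenesis and of glycerol synthesis in fat, stood at 172, 5.33 and 94.7 CPM in eWAT WT and at 393, 1505 and 368 CPM in eWAT KO. It stood at 1763, 1635 and 1592 CPM in liver WT and at 1398, 1557 and 1557 CPM in liver KO, so no group overlapped its counterpart, and the directions were opposite. Its difference was -3.20 over 12 libraries and -2.65 ± 0.77 (SE) over 11. Glul, glutamine synthetase, stood at 2126, 3175 and 3947 CPM in eWAT WT and at 953, 949 and 933 CPM in eWAT KO, with overlapping liver groups and a difference of 1.69 ± 0.46.

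The only gene that passed in liver was Bcl6, a transcriptional repressor, over 11 libraries (edgeR adjusted p = 0.0168), and it was named after its value was seen. It stood at 7.53, 3.31 and 4.28 CPM in liver WT and at 53.1, 59.0 and 38.2 CPM in liver KO. In eWAT WT it stood at 11.3, 6.12 and 13.3 CPM and in eWAT KO at 39.2, 64.4 and 49.2 CPM. KO lay above WT in both tissues without overlap, and the difference was 0.99 ± 0.51 over 12 libraries and 1.25 ± 0.45 over 11 (edgeR adjusted p = 0.866 and 0.316).

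Hormone, stress and clock lists were described by their medians. Over 12 libraries the median was -0.19 for 16 growth hormone and STAT5 targets, -0.06 for 14 insulin signalling genes, -0.02 for 18 clock genes, -0.15 for 17 immediate early genes, -0.15 for 16 amino acid stress genes and 0.33 for 14 heat shock genes. Over 11 libraries these medians were, in the same order, -0.05, 0.05, -0.0038, -0.22, -0.72 and 0.31, so that of amino acid stress moved farthest from 0. Socs2, an inhibitor of growth hormone signalling, stood at 13.7, 4.83 and 8.41 CPM in liver WT and at 3.14, 2.75 and 2.35 CPM in liver KO, and in eWAT at 8.44, 8.54 and 7.31 CPM against 5.15, 7.26 and 5.07 CPM. KO lay below WT in both tissues, and the difference was -1.24 ± 0.50. Vldlr, the very low density lipoprotein receptor, stood at 4.05, 3.56 and 2.51 CPM in liver KO above 1.86, 1.42 and 1.32 CPM in liver WT, with overlapping eWAT groups and a difference of 1.27 ± 0.31 over 11 libraries. Cyp26a1, which breaks down retinoic acid, stood at 53.1, 51.1 and 31.9 CPM in liver KO below 216, 197 and 166 CPM in liver WT, and below 0.6 CPM in each eWAT library. Hspb7, a small heat shock protein of muscle, stood at 20.9, 22.2 and 18.9 CPM in eWAT KO above 2.71, 3.24 and 1.10 CPM in eWAT WT.

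Genes whose groups stood apart in opposite directions were few. KO lay above WT in liver and below WT in eWAT for 39 genes (0.26%), and below in liver and above in eWAT for 46 (0.307%). KO lay above WT in both tissues for 66 (0.44%) and below in both for 112 (0.747%), and the liver groups stood apart for 11.6% and the eWAT groups for 15.4% of genes. Mtx3, a protein of the mitochondrial outer membrane, stood at 8.75, 6.82 and 8.57 CPM in liver WT and at 14.3, 17.2 and 14.1 CPM in liver KO. The eWAT levels were 11.8, 13.1 and 17.5 CPM in WT and 11.03, 10.1 and 10.1 CPM in KO, with a difference of 1.36 ± 0.29. Slc25a45, a mitochondrial carrier, stood at 64.7, 66.5 and 60.0 CPM in liver WT and at 37.2, 31.1 and 42.0 CPM in liver KO. In eWAT it stood at 6.07, 7.68 and 6.17 CPM in WT and at 8.78, 11.1 and 7.69 CPM in KO, where the highest WT and lowest KO libraries nearly met, and the difference was -1.27 ± 0.27.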

How the data were processed

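Polyadenylated RNA was sequenced from liver and eWAT. For each library the authors deposited 1 table of expected counts and 1 of FPKM values. The deposited FPKM values, an expression value per gene length and library size, served only for alternatives. Per the submitters' processing notes, the build was mm10 and the tools included RSEM, HISAT2, StringTie 1.3.1, Bowtie2 2.2.8, fastp 0.18.0, edgeR and DESeq2. Their roles, the annotation and the strand setting are not given in the sources used here. Antisense reads therefore cannot be told apart. Symbols and coordinates are from GENCODE M21, and 22255 of 22298 identifiers matched. Of the deposited expected counts 8.57% were not whole, and all were rounded before testing.

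Genes were kept by filterByExpr (minimum count 10, minimum total 15), scaled by TMM over the 12 libraries and tested with edgeR 4.0.16 (quasi-likelihood, 4 group means, contrast of both genotype effects) in R 4.3.3, with Benjamini-Hochberg adjustment over all genes and a threshold of 0.05. The SE is the absolute log2 fold change over the root of its F statistic. Limma 3.58.1 and DESeq2 1.42.0 were alternatives, with other scalings, filters, the replicate block and libraries left out. The edgeR test of the difference over 12 libraries was tried on simulated counts, and the other tests were not. Groups stand apart when all KO libraries lie on 1 side of all WT libraries.

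Named genes were Bckdha, the lowest p in each direction (at least 6, mean log2 CPM not under 1) and up to 3 of lowest p per pathway list. Members, the 28 pathway lists and the 18 marker lists were chosen with earlier results of these data known. Some genes that the naming rule takes are not reported here.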

Additional observations from a re-analysis of the deposited data

Results flagged for a closer look

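Without eWAT WT replicate 2, the test of the difference between the tissues' genotype effects was passed by 9 genes (edgeR adjusted p 0.0494 to 0.0499). Above 0 these were Me1 at 3.30, Nabp1 at 3.09, Aspa at 2.75, Sbk1 at 2.50, Acss2 at 2.36, Traf4 at 1.95 and D5Ertd579e at 1.58. Below 0 they were Slc41a2 at -3.10 and Arhgef26 at -2.11 (all log2, liver minus eWAT).

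Separately, 6 of the named genes had every KO library on 1 side of every WT library in liver and on the opposite side in eWAT, over all 12 libraries. Their differences were 1.36 for Mtx3, 2.17 for Sbk1, -1.27 for Slc25a45, -2.09 for Myc, -4.32 for Ccl3 and -3.20 for Pck1. None passed the 12-library edgeR test (adjusted p 0.787 to 0.866). Most named genes were picked for a low p of this same difference, which favours such a pattern among them. Of all 14984 genes tested, 39 (0.26%) were higher in liver and lower in eWAT, and 46 (0.307%) the reverse. KO minus WT in liver was only -0.15 for Pck1 and 0.31 for Sbk1. Ccl3 was near the limit of detection in liver, with means of 0.426 CPM in WT and 0.0961 CPM in KO. In eWAT its means were 0.316 CPM in WT and 1.53 CPM in KO, with an SD of 1.89 between the KO libraries. Myc, a transcription factor of growth, stood at 5.31, 5.21 and 7.01 CPM in liver WT and at 3.31, 3.62 and 3.64 CPM in liver KO. In eWAT it stood at 4.89, 2.80 and 4.03 CPM in WT and at 5.83, 17.4 and 6.96 CPM in KO.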

How the results depend on the processing

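The count of 0 genes for the difference over 12 libraries became 40 with DESeq2, 112 with limma-voom and sample weights, 4 with log2(FPKM + 1) with or without a minimum mean FPKM of 1, and 50 without 3 eWAT libraries (WT replicate 2, KO replicates 1 and 3), which leaves a single eWAT KO library that the model assumes to vary like the other groups. It ranged from 0 to 9 when 1 library was left out. The liver count of 0 became 1 with at least 1 CPM in 3 libraries of each tissue, 21 with DESeq2, 59 with sample weights, 2, 1 and 1 with the FPKM settings and 2 without the 3 libraries. It ranged from 0 to 1 when 1 library was left out. The eWAT count of 5 became 0 with TMM within each tissue and with no filter, 385 with DESeq2, 23 with limma-voom, 746 with sample weights, 166, 20 and 172 with the FPKM settings and 325 without the 3 libraries. It ranged from 0 to 436 when 1 library was left out, with 436 for eWAT WT replicate 2 and 28 for eWAT KO replicate 2. The 9 calls over 11 libraries became 0 with upper quartile scaling, TMM within each tissue and limma-voom, 453 with DESeq2, and 0 to 150 when 1 more library was left out, with a single eWAT WT library where that was WT replicate 1 or 3. The labels name no shared animal, so the replicate numbers were not taken as pairs. Between liver and eWAT of the same genotype, same-numbered libraries correlated between -0.0761 and 0.17 in their deviations from the group means. Libraries of other numbers correlated between -0.159 and 0.178. These values cannot show whether liver and eWAT libraries came from the same mice. With the replicate block the counts were 0 for the difference over 12 libraries, 2 in eWAT and 20 over 11 libraries. Bckdha turned to -0.0721, -0.0781 and -0.0721 with FPKM, and it ranged from -0.117 without eWAT WT replicate 3 to 1.01 without eWAT WT replicate 2. FPKM moved the median difference of all genes from 0.08 to between -0.23 and -0.15. The medians of the lists of cholesterol synthesis, lipogenesis, fatty acid oxidation, PPAR-alpha targets, branched-chain amino acid breakdown, oxidative phosphorylation, the mitochondrial genome, the TCA cycle, matrix, inflammatory mediators, cell division, macrophages and T cells kept their sign in all 28 alternatives. For list medians these alternatives, other than leaving out eWAT WT replicate 2, were added after seeing the data. The causes were not tested. Depth limits genes near 0 CPM, such as Foxa1 and Slc17a4 in eWAT.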

Other observations

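Summed levels of the erythroid and plasma cell lists lay lower in the liver KO libraries than in the liver WT libraries. The summed level of 6 erythroid genes, among them the globins, was 2189, 3186 and 2313 CPM in liver WT and 878, 1917 and 1116 CPM in liver KO, without overlap. In eWAT it was 7863, 400 and 9134 CPM in WT and 2553, 5616 and 2469 CPM in KO, where eWAT WT replicate 2 was the lowest. All 6 genes were below 0 in both tissues, so the median difference was -0.14 over 12 libraries and 0.42 over 11. The summed level of 7 plasma cell genes was 588, 625 and 542 CPM in liver WT and 434, 409 and 392 CPM in liver KO, without overlap. Igkc, Jchain and Mzb1, the members of lowest p, averaged 28.8, 6.71 and 0.868 CPM in liver WT. Most of that sum thus came from the other members, which include Xbp1, and is no measure of antibody transcripts. On the mean log2 scale the plasma cell ranges overlapped in liver, at 3.40 to 4.31 in WT and 3.02 to 3.68 in KO. Their median difference was -0.92 over 12 libraries and -1.30 over 11. No gene of either list passed in liver.

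Over 12 libraries the medians of the remaining pathway lists were -0.45 for gluconeogenesis, -0.43 for YAP targets, -0.19 for retinoic acid metabolism, -0.11 for the interferon response and 0.31 for the urea cycle. They were -0.34, -0.28, -0.55, 0.24 and -0.84, in the same order, without eWAT WT replicate 2, so the interferon and urea cycle lists turned sign. Among markers, the medians were -3.19 for neutrophils, -2.72 for spermatids, -1.59 for skeletal muscle, -1.38 for smooth muscle, -0.99 for B cells, -0.93 for hepatocytes, -0.56 for Kupffer cells, -0.54 for endothelium, -0.52 for hepatic stellate cells, -0.09 for adipose progenitors, -0.10 for mature adipocytes, 0.23 for mesothelium, 2.30 for pancreatic acini and 8.83 for epididymis. The marker medians without eWAT WT replicate 2 were -0.73 for epididymis, -5.42 for spermatids, -2.58 for smooth muscle, -0.03 for Kupffer cells, -0.08 for endothelium, -0.29 for adipose progenitors, 0.48 for mature adipocytes and 0.54 for mesothelium. Leaving out eWAT KO replicate 1 alone turned the spermatid median to 6.32. The smooth muscle median was 1.61 without eWAT WT replicate 2 and eWAT KO replicates 1 and 3, which leaves a single eWAT KO library.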
